A study of Homo sapiens with 8 samples.

Results

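In SK-UT-1 uterine leiomyosarcoma cells, 38 of the 60282 genes in the table were at or near 0 in every vehicle library and had counts in every library treated with TP-472. They were chosen by their values in these same 8 libraries, as genes with a rounded count of at most 3 in each of 4 vehicle libraries and at least 10 in each of 4 TP-472 libraries. Names beginning with LINC, COL, HOX, PCDH or SEMA, or containing -AS, were left out, which removed 5 further genes that met both limits, all of them LINC genes. The difference between the groups is therefore what selected these genes and is described below without a test. The 38 genes include the receptor tyrosine kinase KIT, the chemokine receptor CCR4, the ligands EFNB2 and BMP6, the purine receptor P2RY1 and the transcription factor EOMES.

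The established SK-UT-1 line derives from a leiomyosarcoma of the uterus, a malignant smooth muscle tumour. It was treated for 48 h with 5 µM TP-472, a small-molecule inhibitor of the bromodomain proteins BRD9 and BRD7, or with DMSO as vehicle, and total RNA was sequenced in 4 replicates per group. All libraries come from this line. The study's methods speak of biological replicates for its experiments in general, while the labels do not say whether these libraries were separate cultures, so part of the spread given here may be technical. Depth was similar throughout, with totals of 34433517, 36634103, 32574672 and 36407781 counts for the vehicle group in replicate order, and of 38545464, 37674481, 37426900 and 36246277 counts for the treated group.

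BRD9 and BRD7 bind acetylated lysines through their bromodomains and are defining subunits of separate forms of the BAF family of chromatin remodelling complexes, which move nucleosomes and so change access to DNA. Genes that a lineage does not use are commonly held silent by Polycomb complexes, DNA methylation or deacetylated chromatin, or lack the activators that other cell types supply. A bulk count near 0 can mean that no cell makes the transcript or that a few cells do, and the level per cell and the share of cells cannot be told apart in these libraries.

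Vehicle replicate 3 stood apart from the other vehicle libraries. Its median Spearman correlation with its own group was 0.914, against 0.988, 0.988 and 0.989 for vehicle replicates 1, 2 and 4 and 0.993 to 0.997 within the TP-472 group. Leaving it out would have added 15 genes to the 38. Among these were ESR2, the oestrogen receptor beta, with 0, 1, 5 and 2 counts in the vehicle libraries and 12, 12, 13 and 10 with TP-472, and PROC, protein C of the anticoagulant pathway, with 3, 1, 9 and 3 against 40, 35, 31 and 33. Since the rule caps every one of the 38 genes at 3 counts in each vehicle library, genes high in this library alone are not among them.

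The smooth muscle identity of the line was partial by its markers. ACTA2, smooth muscle actin, was abundant at 160 ± 16.7 CPM in vehicle and 109 ± 3.53 CPM with TP-472 (SD, n = 4). CPM is the count per 1000000 reads of TMM-scaled library size. Over all 8 libraries ACTA2 was not called, because its decrease was just under the limit of 1.5-fold (log2 fold change −0.55, SE 0.10, adjusted p = 0.00426 by edgeR). ACTG2 and MYOCD, in contrast, had at most 5 and 8 counts in any library. MYH11, smooth muscle myosin, had 0, 0, 0 and 1 counts in vehicle and 10, 8, 7 and 10 with TP-472, too few to be tested, and its groups do not overlap. Of 6 smooth muscle markers tested, DES (log2 fold change −2.36, SE 0.22), LMOD1 and TAGLN (−0.67, SE 0.12, adjusted p = 0.00397) were lower with TP-472 (edgeR's quasi-likelihood test) and none of those tested was higher. Over all genes tested, 12.0% were called higher and 14.9% lower. DES and LMOD1 passed the filter only through the vehicle libraries. Without vehicle replicate 3 these 2 were not tested, TAGLN stayed lower and ACTA2 was called lower as well (log2 fold change −0.60, adjusted p = 1.26e-04 by edgeR).

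Over the 38 genes, the summed count was 36 to 47 per vehicle library and 885, 893, 1111 and 1459 in TP-472 replicates 1 to 4. One pseudogene, AC004057.1, accounts for the unevenness of the treated group: without it the sums were 814, 786, 782 and 893. Every one of the 38 genes had counts in every TP-472 library, which the rule requires, while the vehicle libraries detected 25, 26, 21 and 23 of them. Their level was low even after treatment, with a median of 0.523 CPM and a range from 0.29 to 7.21 CPM, against a median of 23.4 CPM over the 14073 genes that passed the filter of more than 1 CPM in at least 4 libraries. Per kilobase of exon the median of the 37 genes with a known length was 0.133 RPKM, against 4.73 RPKM. For 36 genes with at least 1 count in vehicle, the ratio of the summed, scaled counts ran from 6.14 (CSMD3) to 175 (IRGM), with a median of 17.8. Beside these stand 12.0% of tested genes called higher by edgeR, a share from which nothing is read here, since the same contrast chose the 38 genes. Only CCR4 and AC004057.1 passed the filter, and they could do so only through the treated libraries.

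**Figure D1:**
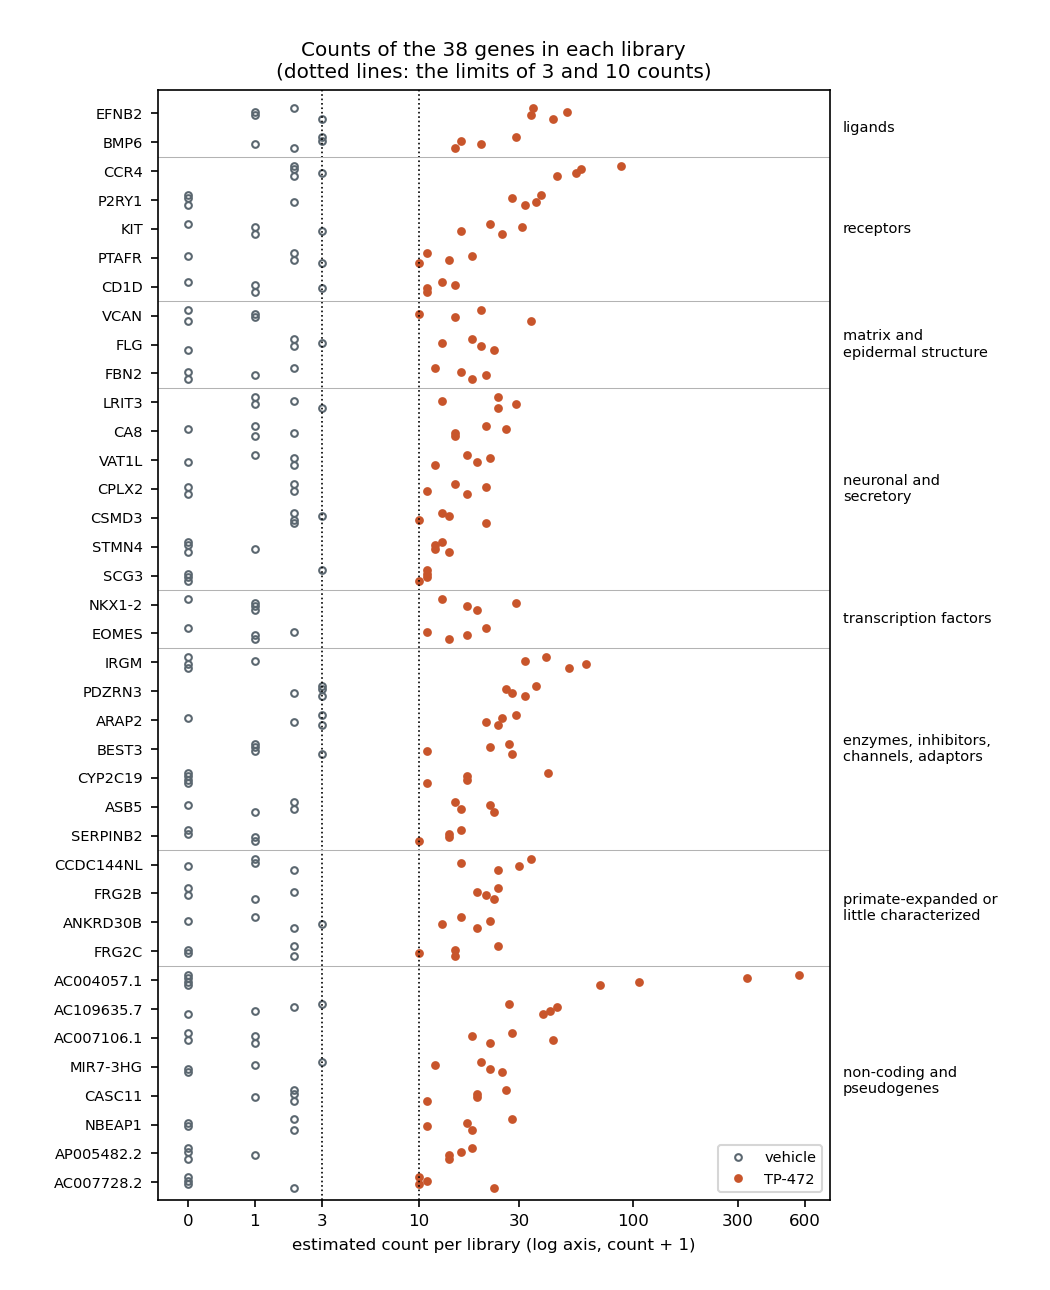
Estimated counts (horizontal, log axis of count + 1) of the 38 genes in each of the 4 vehicle (open) and 4 TP-472 (filled) libraries, grouped by role, with the limits of 3 and 10 counts that chose the genes as dotted lines. Most genes sit between 10 and 60 counts with TP-472, and AC004057.1 alone reaches 566.

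Genes on either side of the limits had like counts. Just inside the vehicle limit lay 16 genes with a highest vehicle count of 3, among them KIT, EFNB2, BMP6 and CCR4, and just outside it 30 genes with a highest count of 4. The latter include CHGA, the secretory granule protein chromogranin A, with 4, 4, 1 and 4 counts in vehicle and 50, 51, 49 and 51 with TP-472. CXCR4, a chemokine receptor, had 2, 4, 2 and 2 against 53, 42, 41 and 24, and SLIT2, an axon guidance ligand, 1, 0, 2 and 4 against 36, 55, 43 and 52. At the other limit, 7 genes had a lowest TP-472 count of exactly 10. A lowest count of 9 kept out 4 genes, namely PRDM6, PDE5A, GATA6 and ABCA13.

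The opposite pattern was less frequent. With the groups exchanged and no name left out, 0 genes had at most 3 counts in every TP-472 library and at least 10 in every vehicle library, against 43 in the direction of the rule. At other limits the numbers were 150 against 16 (at most 3 and at least 5 counts), 110 against 8 (at most 5 and at least 10) and 92 against 14 (at most 10 and at least 20). Without vehicle replicate 3 they were 209 against 29, 131 against 10 and 109 against 15. At the limits of 3 and 10 counts without it, the exchanged rule gave 1 gene, DDO, a peroxisomal D-aspartate oxidase, with 10, 11, 4 and 11 counts in vehicle and 0, 0, 3 and 1 with TP-472. The treated libraries also detected more genes as a whole. Between 25363 and 26211 genes had a count in a TP-472 library and between 23325 and 23939 in a vehicle library, and at the depth of the shallowest library the expected numbers were 24988 to 25917 and 23069 to 23888. The part of this wider detection in the 38 genes was not tested. Most genes low in vehicle stayed so: of 38165 genes with at most 3 counts in every vehicle library, 35887 also had at most 3 in every TP-472 library.

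**Figure D2:**
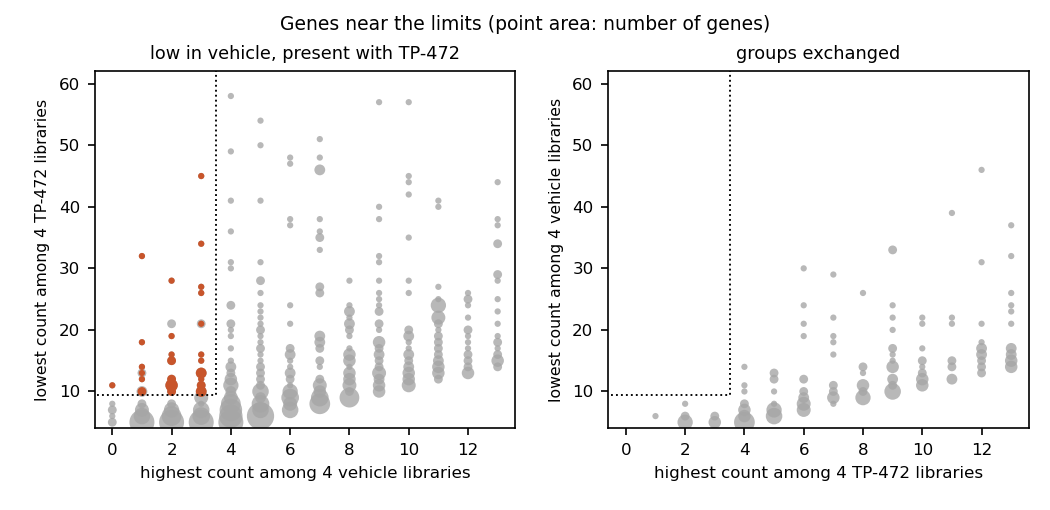
Lowest count in one group (vertical) against the highest count in the other (horizontal) for genes near the limits, with the number of genes as point area, for the direction of the rule (left) and with the groups exchanged (right). Orange points are the 38 genes, grey points inside the dotted box are the 5 LINC genes, and the box is empty on the right.

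Protein-coding genes made up 30 of the 37 genes found in the annotation (81.1%), against 13.9% of all annotated genes low in vehicle. In other terms, 0.591% of 5073 low protein-coding genes and 0.0242% of 33092 other low genes met the rule. Of all 38165 low genes, 27090 had no count in any library, treated or not. How these divide between the 2 kinds is not given here, so the shares also depend on which genes were detected at all. The names left out tilt this comparison: with the 5 LINC genes, 30 of 42 (71.4%) were protein-coding and 0.0393% of the other low genes met the limits. The rest were 4 lincRNAs, 2 pseudogenes and 1 antisense gene, and AC109635.7 had no entry in the annotation used. They were spread over 14 chromosomes, most often chromosome 4 with 6 genes and chromosome 3 with 5. No pair lay within 1 Mb, the closest being ANKRD30B and AP005482.2 on chromosome 18 at 1952135 bp.

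Among the receptors, KIT is the receptor tyrosine kinase for stem cell factor, known for its roles in mast cells, melanocytes, germ cells and the pacemaker cells of the gut. KIT (ENSG00000157404.16, chr4:54657918-54740715 on GRCh38, plus strand) had 1, 3, 1 and 0 counts in the vehicle libraries and 25, 16, 31 and 22 with TP-472, a ratio of 17.9 with a 95% counting interval of 7.41 to 56.5. The gap between the groups is fixed by the rule. The treated level was 0.633 ± 0.171 CPM (SD, n = 4). CCR4, the receptor for the chemokines CCL17 and CCL22 on T cells, had 2, 3, 2 and 2 against 45, 55, 58 and 88 counts and a level of 1.66 ± 0.482 CPM (SD, n = 4) with TP-472. P2RY1, a G protein-coupled receptor for ADP, had 0, 2, 0 and 0 against 32, 36, 28 and 38. PTAFR, the receptor for platelet-activating factor, and CD1D, which presents lipids to natural killer T cells, were close to the limits, with treated counts of 10 to 18 and 11 to 15.

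Of the ligands, EFNB2 encodes ephrin-B2, a membrane-bound ligand of Eph receptors that marks arterial endothelium. It had 3, 1, 1 and 2 counts in vehicle and 43, 34, 50 and 35 with TP-472, a ratio of 22.1 (10.5 to 55.7). BMP6, a bone morphogenetic protein that also regulates iron balance, had 2, 1, 3 and 3 against 15, 20, 16 and 29. Its highest treated value was in TP-472 replicate 4, while the other 3 were 15 to 20.

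Matrix and barrier genes were 3 of the 38. VCAN encodes versican, a large hyaluronan-binding proteoglycan, and varied most of the 3, with 34, 15, 10 and 20 treated counts. FBN2, the microfibril component fibrillin-2, had 0, 1, 0 and 2 counts in vehicle and 18, 21, 16 and 12 with TP-472. FLG, filaggrin of the epidermal barrier, had 0, 2, 3 and 2 against 23, 20, 13 and 18. FLG lies within FLG-AS1 on the other strand and shares 704 exonic bases with it. FLG-AS1 was itself higher with TP-472 (37, 42, 26 and 29 against 89, 67, 75 and 99 counts, log2 fold change 1.22, SE 0.21, adjusted p = 0.00285 by edgeR). It passed the filter only through the treated libraries, with 0.750 and 0.813 CPM in vehicle replicates 3 and 4, so its call is not read as support. Although the study's methods describe strand-specific libraries, the sources used here do not say whether strand was used in counting. The division of reads between the pair depends on this.

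Genes best known from neurons and secretory cells were 7 of the 38. STMN4, a microtubule-destabilising stathmin, had the smallest spread of all 38 genes in the treated group, with 14, 12, 12 and 13 counts and a coefficient of variation of 3.71%. SCG3, a secretogranin of dense-core granules, had 0, 0, 0 and 3 against 10, 11, 11 and 11, and CPLX2, a complexin that controls vesicle fusion, 0, 2, 0 and 2 against 17, 11, 21 and 15. The others, CSMD3, CA8, LRIT3 and VAT1L, had treated counts between 10 and 29. Of 2 transcription factors, EOMES, a T-box factor of early mesoderm, cortical progenitors and lymphocytes, had 1, 1, 2 and 0 against 14, 17, 11 and 21 counts, and the homeobox gene NKX1-2 had 1, 1, 1 and 0 against 19, 17, 29 and 13.

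Enzymes, inhibitors, channels and adaptors formed a mixed group of 7. IRGM, an interferon-linked GTPase of autophagy, had a single count in all vehicle libraries together and 51, 61, 32 and 40 with TP-472, which gives the ratio of 175 a wide interval of 31.1 to 6962. CYP2C19, a drug-metabolising cytochrome P450 of liver, had 0 counts in every vehicle library and 11, 17, 17 and 41 with TP-472, at least 27.3-fold higher against a floor of 3 counts over the vehicle group. SERPINB2, the plasminogen activator inhibitor type 2, had 1, 1, 0 and 0 against 10, 14, 14 and 16. PDZRN3, a ubiquitin ligase, had 3, 2, 3 and 3 against 32, 28, 26 and 36, and ARAP2, a GTPase-activating protein for ARF6, 3, 2, 0 and 3 against 24, 21, 25 and 29, both even among the treated libraries. ASB5, a substrate adaptor of cullin ligases, and BEST3, a bestrophin chloride channel, had treated counts of 15 to 23 and 11 to 28.

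Several counts could not be assigned to a single locus with certainty. AC004057.1 (chr4:113214046-113217170, minus strand, inside ANK2 on the other strand) is annotated as a transcribed processed pseudogene, and the longest of its transcripts, of 348 bases, was identical over its whole length to transcripts of RPS26, a protein of the small ribosomal subunit. It had 0 counts in every vehicle library and 71, 107, 329 and 566 with TP-472, at least 341-fold higher, with the largest spread of the 38 genes (coefficient of variation 83.7%, where counting alone would give 6.11%). RPS26 itself had 4330, 6593, 2366 and 6845 counts in vehicle and 8691, 8356, 8776 and 7403 with TP-472 and did not pass the test (log2 fold change 0.66, SE 0.29, adjusted p = 0.103 by edgeR). Within that stretch reads of the pair cannot be told apart by sequence, and how the estimation divided them was not tested. FRG2B and FRG2C, little-characterised copies of a gene near the repeat array of facioscapulohumeral muscular dystrophy, had 23, 21, 19 and 24 and 15, 10, 15 and 24 treated counts. Their transcripts were 94.4% identical, and FRG2B was 99.5% identical to FRG2, which missed the rule through a single vehicle library (3, 5, 0 and 1 against 44, 46, 43 and 26). The 3 genes were therefore near 0 in vehicle together, whichever of them the reads came from. CYP2C19 was 90.9% identical over 473 bases to CYP2C18, which had few counts as well (5, 4, 1 and 4 against 9, 18, 27 and 31). ANKRD30B (19, 13, 22 and 16 treated counts) was 98.3% identical over 2192 bases to ANKRD30BP1, which had at most 2 counts, and SERPINB2 shared 549 bases with SERPINB10, which had 2 counts in TP-472 replicate 1 and 0 elsewhere. CCDC144NL (24, 30, 16 and 34 treated counts) shared 535 bases at 97.6% identity with CCDC144A, which was lower with TP-472. Shorter stretches of other members resembled more abundant genes. SCG3 was 90% identical over 211 bases to PTPRS (2836 to 20194 counts in a library), CYP2C19 90.1% over 242 bases to UQCC1 and AC007728.2 91.2% over 273 bases to SETMAR. Among the receptors, CCR4 was 91.3% identical over 309 bases to MFN1 (1795 to 4287 counts in a library) and 90% over 311 bases to FOXK1 (1629 to 8614 counts). PTAFR was 90.1% identical over 293 bases to AGO3 (2196 to 3234 counts) and like GSTM3 and METTL21A over a similar length. In all, 18 of 37 genes had at least 200 bases at 90% identity or more with a transcript of another gene, on either strand.

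Among the non-coding genes, AC109635.7 had 39, 42, 45 and 27 treated counts and AC007106.1 had 22, 43, 18 and 28. AP005482.2 (14, 14, 16 and 18) was even across the treated libraries, whereas NBEAP1, a pseudogene, ranged from 11 to 28. AC007728.2 (23, 10, 11 and 10) shares 202 exonic bases with NOD2 on the other strand, which was lower with TP-472 (log2 fold change −1.65, SE 0.26). CASC11, a lincRNA 1467 bp from MYC, had 2, 1, 2 and 2 against 11, 19, 19 and 26, while MYC itself was not called (131.8, 119.2, 280.5 and 123.7 CPM in vehicle and 199.1, 189.4, 188.8 and 209.8 CPM with TP-472, log2 fold change 0.26, SE 0.27, adjusted p = 0.455 by edgeR). Vehicle replicate 3 decided this call, and without it the log2 fold change of MYC was 0.65 (adjusted p = 4.04e-05 by edgeR). MIR7-3HG had 0, 0, 1 and 3 against 25, 22, 12 and 20 counts and hosts MIR7-3, one source of the microRNA miR-7, whose RefSeq sequence (GRCh38.p14, chr19:4770700-4770723, plus strand) is shown for reference with its seed, bases 2 to 8, in capitals.
hsa-miR-7-5p: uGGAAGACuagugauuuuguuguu
These libraries counted the host transcript and did not measure the mature microRNA.

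For many of the 38 genes the treated replicates differed by little more than counting error, but the rule shapes this spread. It requires at least 10 counts in every TP-472 library and so leaves out genes with a low treated replicate. The values below are therefore given as a description and are not read as evenness of the response. The coefficient of variation over 4 TP-472 libraries had a median of 27%, against a median of 22.7% from counting alone. It was at or below the counting value in 12 genes and more than 1.5 times above it in 11. TP-472 replicate 4 held the highest level of 14 genes, replicate 3 of 11, replicate 1 of 7 and replicate 2 of 6.

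To compare the 38 genes with what surrounds them, the nearest gene that passed the filter was taken for each of the 37 with coordinates. Their own values were not used in the choice, but FLG-AS1, counted below as a higher neighbour, shares exonic bases with FLG, so its counts are not independent of those that chose FLG. FLG-AS1 also passed the filter only through the treated libraries, so its call is not read as support. Over all genes tested, edgeR called 12.0% higher and 14.9% lower with TP-472 (adjusted p under 0.05 and more than 1.5-fold). Of the 37 neighbours, 12 (32.4%) were higher, 4 (10.8%) lower and 21 not called, with a median log2 fold change of 0.20 against −0.026 over all genes. For the 35895 other genes low in vehicle for which a nearest tested gene was found, that gene was higher in 14.7% and lower in 14.2%. Whether the share of neighbours differs from these was not tested, and with no filter on low counts, where the nearest gene can be another one, 6 neighbours were higher.

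The neighbour with the largest increase was SERPINB8, a serpin 66035 bp from SERPINB2 in the same cluster (6.35 ± 0.860 CPM in vehicle, 19.6 ± 1.4 CPM with TP-472, log2 fold change 1.63, SE 0.14, adjusted p = 9.88e-05 by edgeR). RAB3IP, an exchange factor for RAB8 near BEST3, was higher by 1.54 (SE 0.22, adjusted p = 0.00116 by edgeR) and STIM2, a calcium sensor of the endoplasmic reticulum 942342 bp from AC007106.1, by 1.01 (SE 0.15). GAR1 near LRIT3, TRIM35 near STMN4 and LYSMD2 near SCG3 were higher by 0.98, 0.91 and 0.89 on the log2 scale. The remaining higher neighbours were FLG-AS1, PTPN2, SPCS3, SLC12A2, FEM1A and RAP2B, of which SPCS3, SLC12A2 and RAP2B lost the call without vehicle replicate 3. Those lower were LHPP near NKX1-2 (log2 fold change −1.21, SE 0.29, adjusted p = 0.0119 by edgeR), HERC2P3, KIRREL1 and TRPS1. The closest neighbour of KIT, PDGFRA, a receptor of the same family at 359671 bp, was not called (1.17 ± 0.391 CPM in vehicle and 1.34 ± 0.155 CPM with TP-472, adjusted p = 0.569 by edgeR). Within 100 kb, 10 of 25 neighbours were higher, FLG-AS1 among them, beside 12.0% of all genes tested. The share at this distance for other genes low in vehicle is not given here, and the difference was not tested.

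**Figure D3:**
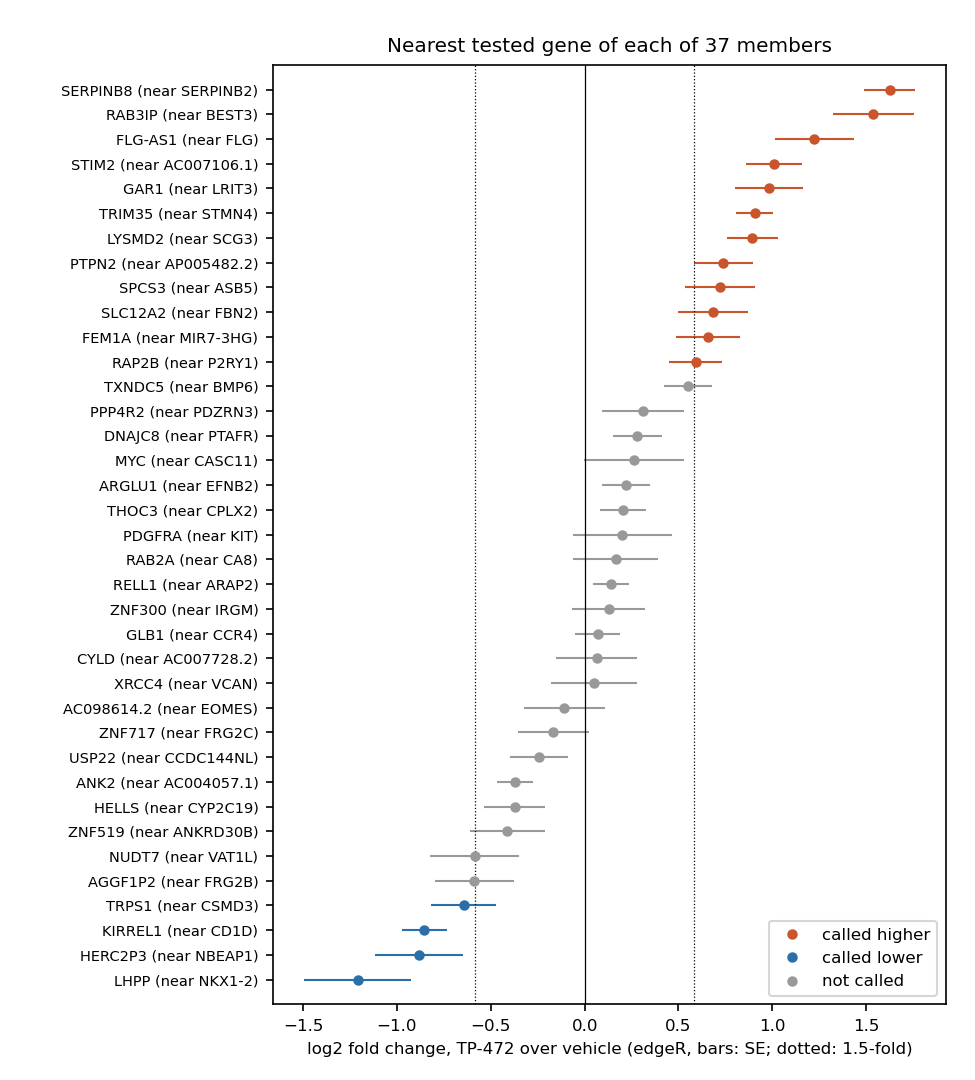
Log2 fold change (horizontal, TP-472 over vehicle, with its SE) of the nearest tested gene of each of 37 members (vertical, ordered by fold change), coloured by edgeR's call. SERPINB8 is at the top with 1.63 and LHPP at the bottom with −1.21.

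Ligands, receptors and binding partners of the 38 genes show what else of each pathway was present. These partners were listed by hand once the members were known. Of 49 partners, 33 passed the filter, of which 6 were higher and 7 lower, beside 12.0% higher and 14.9% lower of all 14073 genes tested. KITLG, the stem cell factor that activates KIT, had 6, 10, 0 and 8 counts in vehicle and 75, 59, 57 and 65 with TP-472 (log2 fold change 3.32, SE 0.50). The groups do not overlap, and without vehicle replicate 3, the library at 0, the value was 2.91. KITLG and CHGA passed the filter only through the treated libraries, so their calls are not read as support. CCL17 and CCL22, the ligands of CCR4, had at most 3 counts in any library.

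Of 6 receptor genes listed for BMP6, 3 were called, beside 12.0% higher and 14.9% lower of all genes tested. BMPR1A and ACVR1 were not called and BMPR1B was too low to be tested. ACVR2A was higher (157, 174, 109 and 186 against 330, 322, 344 and 381 counts, log2 fold change 1.07, SE 0.18, adjusted p = 0.00234 by edgeR), whereas BMPR2 (−0.82, SE 0.17) and ACVR2B (−0.62, SE 0.12) were lower. BMP5, the relative of BMP6 with the most counts, was lower (2554, 2441, 1423 and 2388 against 894, 817, 853 and 861, log2 fold change −1.43, SE 0.17). Of the Eph receptors listed for ephrin-B2, EPHA4 was lower by 0.73 on the log2 scale (SE 0.12), as was the related ligand EFNB3 with −0.97 (SE 0.14). EPHB2 (log2 fold change 0.43, SE 0.20) and EPHB3 (1.01, SE 0.37) were not called, and without vehicle replicate 3 both were, with 0.66 and 1.51. EPHB4 (77.4 CPM in vehicle and 50.5 CPM with TP-472) was not called in either fit, with −0.62 (SE 0.24) and −0.28. In that fit, 10 of the partners in place of 6 were higher. For versican, the protease gene ADAMTS1 was under the filter with 4, 2, 4 and 2 counts in vehicle and 56, 35, 31 and 49 with TP-472.

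CHGA, a granule partner of SCG3, was met above as a gene just outside the vehicle limit (log2 fold change 3.83, SE 0.30). SNAP25, one of the SNARE genes listed for CPLX2, was lower with TP-472 (158, 163, 142 and 146 against 43, 50, 49 and 67 counts, log2 fold change −1.61, SE 0.18, adjusted p = 3.94e-04 by edgeR). The SNARE genes STX1A (0.41, SE 0.30) and VAMP2 (−0.48, SE 0.27), also listed, were not called. Without vehicle replicate 3, STX1A was called higher (0.83, adjusted p = 2.82e-04 by edgeR). Other members of the same families, 89 genes listed in the same way, could be tested in 29 cases, of which 2 were higher and 11 lower, beside 12.0% and 14.9% of all genes tested. Without vehicle replicate 3 they were 6 and 10. The 2 higher were SERPINB8 and BMP8A, the latter past the filter only through the treated libraries, and among the lower were the purine receptor P2RY6 (log2 fold change −2.77, SE 0.27, past the filter only through the vehicle libraries), the KIT relative PDGFRB (−2.33, SE 0.27), fibrillin-1 gene FBN1 (−0.59, SE 0.11) and both ARAP1 and ARAP3. TBX21, the T-box relative of EOMES, was under the filter with 3, 10, 11 and 6 against 53, 29, 26 and 24 counts.

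**Figure D4:**
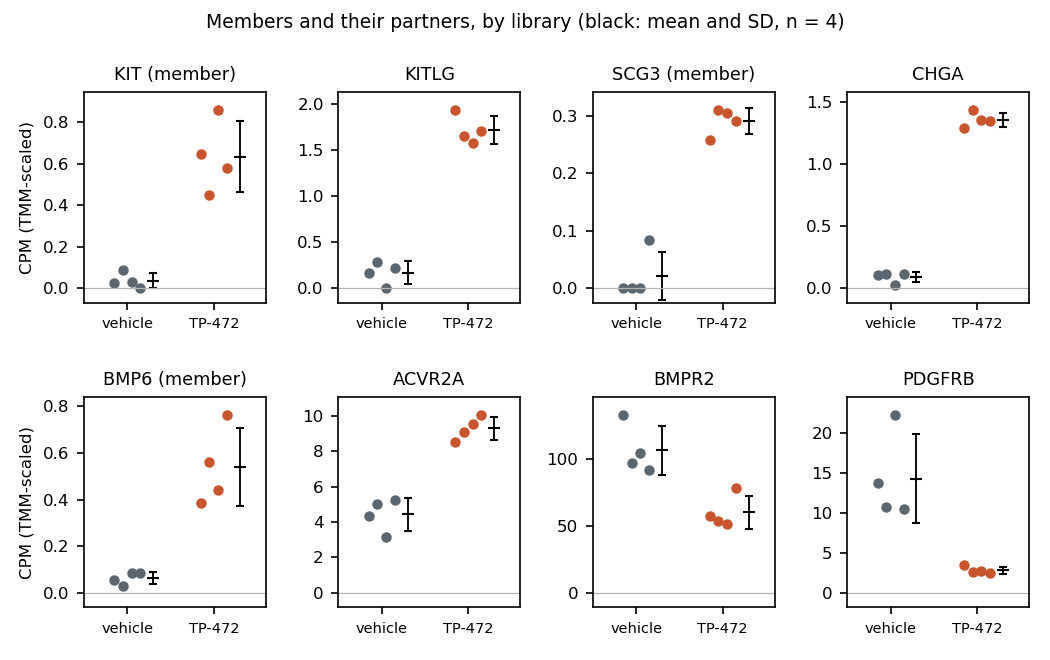
Level (vertical, TMM-scaled CPM) of 3 of the 38 genes and of 5 genes that bind or resemble them, in each vehicle and TP-472 library, with mean and SD (n = 4). KITLG, CHGA and ACVR2A are higher with TP-472, and BMPR2 and PDGFRB are lower.

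The list of 18 KIT signalling genes, which holds KIT itself and its ligand KITLG, had 16 that were tested. Of these, 1 was higher (KITLG, past the filter only through the treated libraries) and 6 lower, beside 12.0% higher and 14.9% lower of all genes tested. Their median log2 fold change was −0.13 against −0.026 over all genes. STAT5A (−0.87, SE 0.14) and STAT5B (−0.76, SE 0.10), transcription factors that KIT activates, and the adaptors SHC1 (−0.69, SE 0.12) and GAB2 were lower, as were SOS1 and SRC. GRB2, PIK3R1, PTPN11 and MITF were not called. Markers of cell types that usually carry KIT differed in level. All 6 mast cell markers had at most 3 counts in every library, with TPSB2, CPA3 and FCER1A at 0 throughout, and their summed level was 0 to 0.0861 CPM in vehicle and 0.0516 to 0.0830 CPM with TP-472, HDC being the most abundant. Of 5 melanocyte markers TYR was at 0, PMEL was the most abundant, and the sum was 1.41 to 1.78 CPM in vehicle and 0.948 to 1.66 CPM with TP-472. PMEL made up most of this sum and was not called, while without vehicle replicate 3 it was called lower (−0.68, adjusted p = 0.0499 by edgeR). DCT, too low to be tested, had 1, 3, 4 and 1 counts in vehicle and 13, 14, 7 and 9 with TP-472. MLANA and TYRP1 had 0 counts in vehicle and at most 3 in a TP-472 library. Germ cell markers, with PRAME and TEX14, were more abundant and are given below.

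Markers of other cell types bear on CCR4, CD1D, PTAFR, EFNB2 and the neuronal genes. The leukocyte markers CD3E and MS4A1 were at 0 in all libraries and PTPRC had 1 count in all, while the sum of 10 markers, mostly CD68, was 8.43 to 10.2 CPM in vehicle and 12.0 to 15.2 CPM with TP-472. None of 7 endothelial markers passed the filter, with sums of 0.332 to 0.663 CPM in vehicle and 0.775 to 1.32 CPM with TP-472, CLDN5 being the most abundant in vehicle. For the lists of this paragraph, the shares called over all genes tested were 12.0% higher and 14.9% lower. Of 10 neuronal and neuroendocrine markers, 4 were tested, of which CHGA was higher, having passed the filter only through the treated libraries, and SNAP25 lower. Without vehicle replicate 3, CHGB was also called higher (0.95), and in that fit it too passed the filter only through the treated libraries. TUBB3 made up most of their sum of 325 to 523 CPM in vehicle and 376 to 482 CPM with TP-472. Only 1 of the 10 leukocyte markers was tested, and it was not called (log2 fold change 0.47). The sums of leukocyte and endothelial markers were higher with TP-472. That of the smooth muscle markers was lower, with 240 to 344 CPM in vehicle and 172 to 192 CPM with TP-472. How these sums relate to the 38 genes was not tested. Among 13 germ cell and cancer-testis markers, TEX14 was higher (114, 91, 112 and 103 against 551, 506, 437 and 615 counts, log2 fold change 2.26, SE 0.15, adjusted p = 3.97e-05 by edgeR), PRAME was the most abundant and not called, and SYCP1, MAGEA1 and PIWIL1 were at 0. Of 9 epithelial markers 4 were tested, of which KRT18 was higher and KRT19 and MUC1 lower. MUC1 passed the filter through the vehicle libraries (0.591 to 1.16 CPM with TP-472). KRT14 and EPCAM were too low to be tested and went opposite ways. KRT14 had 0 counts in every vehicle library and 10, 7, 9 and 5 with TP-472, and EPCAM 24, 22, 29 and 28 against 8, 11, 9 and 8. Of 6 fibroblast markers 4 were tested and only PDGFRB was called.

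Genes that act in silencing and chromatin remodelling were read against the 12.0% higher and 14.9% lower over all genes tested. Of 29 Polycomb and H3K27 demethylase genes, all tested, none was higher and 4 were lower: CBX7 (−1.79, SE 0.32), PHC1, PHF1 and EZH1 (−0.71, SE 0.10, adjusted p = 0.00101 by edgeR). EZH2, the main H3K27 methyltransferase, was not called (91.6 ± 22.4 CPM in vehicle, 102 ± 1.49 CPM with TP-472). Of 11 DNA methylation genes, none was higher, and DNMT3A (−1.10, SE 0.16) and TET1 were among those lower. The 11 HDAC genes had a median of −0.86, with HDAC5 (−2.08, SE 0.22), HDAC9 (−1.40, SE 0.13), HDAC6 and HDAC7 lower and HDAC2 higher by 0.60 on the log2 scale (SE 0.20, adjusted p = 0.0402 by edgeR). Without vehicle replicate 3 the median of these 11 genes was −0.44, and HDAC2 (0.42) and HDAC7 (−0.49) were under the fold limit. Among 26 tested subunits of BAF complexes, none was higher and 4 were lower (SMARCC2, SMARCD3, ARID1A and ARID1B), and the targets of the compound, BRD9 (79.9 ± 22.9 against 71.3 ± 3.14 CPM) and BRD7 (56.1 ± 0.584 against 60.6 ± 2.64 CPM), were not called. Protein levels and chromatin marks were not measured in these libraries.

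What the 38 genes share in sequence was read from their RefSeq promoters (GRCh38.p14), windows of 250 bases before to 50 bases after the first listed start. The table held 24 of the 38 genes. Their GC content had a median of 60.2%, and their CpG observed over expected, a measure that is low where CpG has been lost through methylation, a median of 0.522. It was over 0.6 in 11 of 24 (45.8%), close to the 48.9% of all 27305 promoters, whose median was 0.580. The share was 20.7% for 5486 other genes low in vehicle and 84.6% for 10197 tested genes. The share of the 24 genes was thus near that of all promoters and lay between those of low and tested genes. It is not read as a trait of the 24 genes. Their values were spread widely. CpG-rich promoters included those of EFNB2 (1.06), BMP6 (1.03), FBN2 (1.00), KIT (0.952) and NKX1-2 (0.950). CpG-poor ones included those of FLG (0.0644), SERPINB2 (0.0880), CD1D (0.137) and CYP2C19 (0.156).

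Of the motifs searched on both strands, TATAAA (the TATA box) was in 9 of 24 windows (37.5%), against 12.0% of all 27305 promoters and 18.7% of the other genes low in vehicle. In 8 of them (33.3%) it began between 35 and 25 bases before the start, where a working TATA box lies, against 2.86% and 6.51%, a window chosen after the positions were seen. TGANTCA (AP-1) was in 3 windows (12.5%, against 7.76% and 11.0%), GGAATG (TEAD) in 4 (16.7%, against 14.0% and 15.7%), and GGANTTTCC (kB) and the CArG box in 1 each (4.17%, against 1.64% and 1.29% of all promoters). TGACGTCA (CRE) was in none, and 1.98% of all promoters hold it. A match of letters is not a bound site, and with 24 windows a single gene is 4.17%. FRG2B and FRG2C are copies, so neither their TATA boxes nor their GGAATG matches, 2 of the 4, are separate examples.

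**Figure D5:**
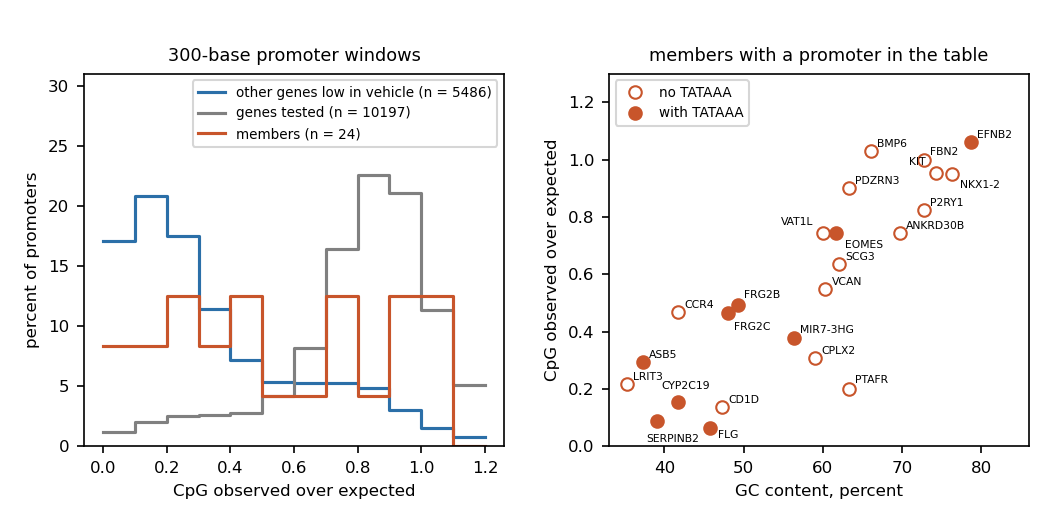
CpG observed over expected of 300-base promoter windows as percent of each set (left, in steps of 0.1, the last step also holding higher values), and the same measure against GC content for the 24 genes with a promoter in the table (right), filled where the window holds TATAAA. The values of the 24 genes are spread from 0.0644 to 1.06.

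The promoters of 6 genes are shown as examples of these kinds, 5′ to 3′ along the gene, with matches to TATAAA and TGANTCA on either strand in capitals (TTTATA is TATAAA read on the other strand). KIT (chr4:54657707-54658006, plus strand) is CpG-rich and holds none of the motifs searched. EFNB2 (chr13:106535613-106535912, minus strand) and EOMES (chr3:27722274-27722573, minus strand) are CpG-rich with a TATA box on the reverse strand 30 and 31 bases before the start. SERPINB2 (chr18:63887455-63887754, plus strand) is CpG-poor and holds both a TATA box at 30 bases and an AP-1 match at 102 bases before the start. FRG2B (chr10:133626746-133627045, minus strand) and FRG2C (chr3:75664078-75664377, plus strand) show how alike these copies are up to and beyond the TATA box.
KIT: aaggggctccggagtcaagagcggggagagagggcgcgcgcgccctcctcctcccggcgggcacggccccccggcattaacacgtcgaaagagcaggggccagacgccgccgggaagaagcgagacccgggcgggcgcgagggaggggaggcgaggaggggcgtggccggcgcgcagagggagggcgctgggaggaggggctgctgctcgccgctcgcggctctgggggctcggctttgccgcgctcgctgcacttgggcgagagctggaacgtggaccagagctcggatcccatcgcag
EFNB2: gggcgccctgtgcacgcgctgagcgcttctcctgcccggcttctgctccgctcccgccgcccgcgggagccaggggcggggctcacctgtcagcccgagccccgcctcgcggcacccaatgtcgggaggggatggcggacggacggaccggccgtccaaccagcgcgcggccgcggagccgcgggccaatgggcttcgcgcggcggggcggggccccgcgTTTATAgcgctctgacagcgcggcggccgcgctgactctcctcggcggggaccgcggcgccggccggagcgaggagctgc
EOMES: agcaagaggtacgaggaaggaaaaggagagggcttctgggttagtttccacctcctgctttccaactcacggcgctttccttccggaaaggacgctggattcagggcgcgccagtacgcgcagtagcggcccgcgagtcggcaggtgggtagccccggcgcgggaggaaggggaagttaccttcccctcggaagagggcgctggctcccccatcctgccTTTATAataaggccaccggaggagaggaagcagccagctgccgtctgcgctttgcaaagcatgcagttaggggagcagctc
SERPINB2: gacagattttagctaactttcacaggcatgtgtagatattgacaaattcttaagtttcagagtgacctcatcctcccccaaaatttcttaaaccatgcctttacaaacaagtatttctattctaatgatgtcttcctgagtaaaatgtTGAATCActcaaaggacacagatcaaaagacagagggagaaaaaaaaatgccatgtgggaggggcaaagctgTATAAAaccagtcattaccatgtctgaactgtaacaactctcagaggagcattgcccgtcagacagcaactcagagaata
FRG2B: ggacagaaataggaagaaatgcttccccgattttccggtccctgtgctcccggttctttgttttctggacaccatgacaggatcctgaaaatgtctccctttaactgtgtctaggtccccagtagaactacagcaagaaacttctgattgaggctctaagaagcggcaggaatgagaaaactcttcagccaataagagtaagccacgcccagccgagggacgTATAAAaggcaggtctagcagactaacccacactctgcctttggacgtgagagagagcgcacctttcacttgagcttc
FRG2C: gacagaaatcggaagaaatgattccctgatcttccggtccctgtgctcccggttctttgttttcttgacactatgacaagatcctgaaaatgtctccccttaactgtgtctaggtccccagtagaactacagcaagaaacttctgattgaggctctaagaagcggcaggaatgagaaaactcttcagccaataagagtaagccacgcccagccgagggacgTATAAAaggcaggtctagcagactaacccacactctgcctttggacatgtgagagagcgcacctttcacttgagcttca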

How the data were processed

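SK-UT-1 cells were measured by RNA-seq in 4 vehicle and 4 TP-472 libraries. The authors deposited estimated counts per gene, made with Salmon 1.4.0, read with tximport and summed over GENCODE 34 genes on GRCh38, neither normalised nor filtered. STAR served for mapping and quality control. Libraries were strand-specific per the study's methods, and whether strand was used in counting is not given in the sources used here.

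Here the estimated counts were rounded to whole numbers. Groups came from the sample labels. Genes other than the 38 were tested with edgeR 4.0.16 (quasi-likelihood, TMM scaling, over 1 CPM in at least 4 libraries, Benjamini-Hochberg adjusted p under 0.05 and more than 1.5-fold) across all 8 libraries, without a block. RLE and total-count scaling, DESeq2 1.42.0, limma-voom (limma 3.58.1), other filters, a replicate block and leaving out each replicate were tried. The fit was tested on simulated data, the outcome of which is not given here and is not used. Ratios of the 38 genes are summed counts scaled by TMM library size, with exact conditional (Clopper-Pearson) 95% intervals that cover counting error only, and a floor of 3 counts over the vehicle group where that was 0. RPKM and coordinates used exons and positions of GENCODE 29. Transcripts were compared with blastn, at 90% identity over at least 200 bases. Promoters and the miRNA are from RefSeq, using the first window listed for each gene.

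The 38 genes and the lists were chosen with earlier results of these data known, and partners, relatives and roles were listed after the gene names were seen. Named by rule were KIT, the 20 protein-coding and 5 other genes with the highest lowest treated count, those in a list, close to another or at a limit, those with extreme variation, their neighbours, and genes of the lists. Further genes, such as ESR2, PROC, RPS26 and the partners, were picked after their values were seen. Same-numbered libraries did not deviate together (correlations of −0.0554, 0.116, −0.171 and −0.177), so the numbers were not taken as pairs. A few genes of the lists and relatives are not reported here.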

Additional observations from a re-analysis of the deposited data

Results flagged for a closer look

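Of 147 groups of 4 values examined, 15 had a highest or lowest library whose gap to the nearest, over the whole range, was above Dixon's 95% critical value. Chance flags about 1 in 20 groups. The flag fell on vehicle replicate 3 for 11 of them: its median Spearman correlation with its own group was low (0.914), its CPM was lowest for CHGA (0.0288), BMP5 (41.0), FBN1 (30.3), HDAC9 (130) and EZH2 (58.4), and highest for MYC (280), SHC1 (395), HDAC5 (40.5), CBX7 (22.5) and BRD9 (114). Of the 38, AC007728.2 was flagged for TP-472 replicate 1, whose 0.594 CPM lay above the other treated libraries. TP-472 replicate 1 was also highest for PDGFRA (1.57 CPM) and lowest for BMP8A (1.08 CPM), and vehicle replicate 1 was lowest for TAGLN (27.1 CPM).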

How the results depend on the processing

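The number of genes that met the rule followed its limits. It was 2 with 0 counts in every vehicle library, 9 with at most 1 count, 101 with at most 5, 140 with at least 5 treated counts and 8 with at least 20. It was 0 with the groups exchanged, and 40 to 57 when 1 replicate was left out. Scaling by TMM library size left 20 (14 were lost at the vehicle limit alone, 2 at the TP-472 limit alone and 2 at both), and 35 when the scaled counts were rounded, an alternative chosen after seeing the data. Both sets were among the 38. Without a filter on low counts, 6 nearest neighbours in place of 12 were higher. The nearest tested gene can then be another one, and the cause of the change was not tested. Leaving out 1 replicate gave 1165 to 1785 genes higher and 1321 to 2325 lower (1321 without TP-472 replicate 3 and 1345 without TP-472 replicate 2), 10 to 13 higher neighbours and 24 to 39 called genes in the lists, against 33. P2RY11, a relative of P2RY1, lay between −0.56 and 0.67 on the log2 scale when 1 replicate was left out and turned upward without vehicle replicate 3. With the replicate number as a block, 1500 genes were higher and 1555 lower, 12 neighbours were higher and 28 list genes were called, and 9 of 206 single genes lost their call. Among genes named here, SOS1, SRC, HDAC2, HDAC7, ARID1A, ARID1B, ACVR2B, FBN1, BMP8A, KRT19, RAP2B, SLC12A2, SPCS3, FEM1A, HERC2P3 and TRPS1 lost the call when one or another replicate was left out, and the cause was not tested. Counts of 10 to 60 per library limit what can be said of any single one of the 38 genes.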
